A study of Mus musculus with 9 samples.

Results

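The serpins are a family of proteins that mostly block serine proteases, and the liver makes many of those that circulate in blood. Liver RNA was followed here for 52 serpin genes among the 22180 mouse genes measured with a single gene symbol. Members were taken by name, from symbols made of Serpin, a clade letter from a to i and a gene number. The set was chosen with earlier results of these data known. Each gene is represented by its probe set with the highest mean over the 9 arrays. Of the 52 genes, 18 belong to clade A, 25 to clade B and 9 to clades C to I. A further 11 serpin symbols of the RefSeq gene table, such as Serpina3k and Serpinb10, were not analysed here.

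A serpin works as a trap. It exposes a loop that the protease takes for a substrate. Once the loop is cut the serpin changes shape and distorts the protease, so that both are lost. Clade A serpins are mostly secreted by hepatocytes and include the alpha-1-antitrypsins, which inhibit neutrophil elastase, the antichymotrypsins, and members that carry hormones and inhibit no protease. Antithrombin, heparin cofactor II, antiplasmin and C1 inhibitor, which belong to clades C, D, F and G, restrain clotting, clot breakdown and complement activation. Clade B serpins stay mainly inside cells and protect them from proteases of granules and lysosomes. SMRT and NCoR are corepressors, proteins that nuclear receptors recruit to keep target genes repressed.

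The livers came from 3 groups of 3 individual mice, 1 array per mouse. Control mice carried floxed alleles of both SMRT and NCoR with no deletion, SMRT KO mice had lost hepatic SMRT, and double KO mice had lost hepatic SMRT and NCoR together. All were euthyroid females aged 7 to 9 weeks on standard chow, with a mixed 129SV/B6 background. The labels give neither the Cre driver nor the NCoR allele of the SMRT KO mice, no group lacks NCoR alone, and the genotypes were not checked here. The comparison of double KO with SMRT KO livers therefore holds the loss of NCoR where SMRT is already absent, together with any other difference between these 2 groups. Values are log2 signals, so 1 unit is a 2-fold difference, and a level cannot be set against that of another gene.

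Array correlations were 0.987 to 0.992 within groups and 0.983 to 0.989 between groups. As a guide to background, 1394 olfactory and vomeronasal receptor genes had 95th percentiles of 5.91 to 6.22 over the arrays. Of the serpins, 17 lay above that percentile on all arrays, 28 on none and 7 on some. The 8 hepatocyte markers had means of 10.75 to 13.94, and 0 markers of any cell type listed passed the test in any comparison. In whole liver RNA, fewer cells of a type and less RNA per cell cannot be told apart.

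The upstream sequences of the genes that carry the results are shown first, because several of these genes are neighbouring copies whose values differed in what passed the test. They are RefSeq windows on GRCm38.p6 from 250 bases before to 50 bases after an annotated start, written 5′ to 3′ along the gene. RefSeq windows were matched by symbol for 46 of the 52 genes, and Serpinb1a is not among these. Capitals mark AGGTCA, the nuclear receptor half-site, and GTTAAT, the half-site of HNF1, a hepatocyte transcription factor.
Serpinb1c second start, chr13:32898091-32898390, minus strand: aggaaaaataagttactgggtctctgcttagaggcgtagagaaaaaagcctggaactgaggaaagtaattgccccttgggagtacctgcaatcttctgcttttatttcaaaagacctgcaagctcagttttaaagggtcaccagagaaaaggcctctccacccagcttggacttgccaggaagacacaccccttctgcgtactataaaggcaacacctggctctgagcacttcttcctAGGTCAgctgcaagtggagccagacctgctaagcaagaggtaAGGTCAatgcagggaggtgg
Serpina3n, chr12:104406458-104406757, plus strand: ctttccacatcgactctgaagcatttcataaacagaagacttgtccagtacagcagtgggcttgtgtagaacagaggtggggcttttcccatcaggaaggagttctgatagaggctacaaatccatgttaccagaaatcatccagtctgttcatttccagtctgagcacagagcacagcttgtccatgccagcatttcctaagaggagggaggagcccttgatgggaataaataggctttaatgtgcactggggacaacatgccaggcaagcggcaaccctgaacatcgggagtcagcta
Serpina1a, chr12:103863570-103863869, minus strand: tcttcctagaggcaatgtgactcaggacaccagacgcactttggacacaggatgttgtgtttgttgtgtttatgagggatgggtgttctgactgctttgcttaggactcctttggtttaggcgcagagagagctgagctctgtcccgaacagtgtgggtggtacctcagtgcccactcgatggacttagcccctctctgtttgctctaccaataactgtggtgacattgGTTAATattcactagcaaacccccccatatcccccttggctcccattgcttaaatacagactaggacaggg
Serpina1e, chr12:103956848-103957147, minus strand: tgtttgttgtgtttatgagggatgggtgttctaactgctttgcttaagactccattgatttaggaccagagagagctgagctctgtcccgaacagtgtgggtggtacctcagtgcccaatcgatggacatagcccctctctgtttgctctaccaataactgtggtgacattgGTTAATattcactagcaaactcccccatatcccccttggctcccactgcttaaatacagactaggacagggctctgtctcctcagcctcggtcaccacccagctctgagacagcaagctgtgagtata
Serpina1c, chr12:103904901-103905200, minus strand: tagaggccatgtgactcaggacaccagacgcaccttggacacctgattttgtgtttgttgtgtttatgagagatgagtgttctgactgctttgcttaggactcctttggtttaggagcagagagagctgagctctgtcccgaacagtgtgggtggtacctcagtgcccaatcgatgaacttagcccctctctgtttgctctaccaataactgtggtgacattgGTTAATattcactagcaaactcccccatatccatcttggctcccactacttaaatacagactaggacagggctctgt

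The Serpinb1c window held AGGTCA at -12 and 31, counted with the annotated start base as 1 and no 0. The window of its first annotated start held none. The window of Serpina3n held neither motif. Serpina1a held GTTAAT at -21, Serpina1e at -78 and Serpina1c at -27. These 3 windows are near copies of each other. Serpina1a and Serpina1e were identical at 95.9% of 243 aligned positions, and Serpina1a and Serpina1c at 94.9% of 294. Serpina1a and Serpina3n shared 48.2% of 309 aligned positions. Both strands were searched for both motifs and for TTCNNNGAA, the site of STAT factors, and no matches overlapped. The 53 serpin windows come from 46 genes, and windows of near copies each count, so their matches are not independent. AGGTCA was in 19 of 53 serpin windows (35.8%) and in 16.3% of all 32851 windows. GTTAAT was in 8 serpin windows (15.1%) and in 7.1% of all, and TTCNNNGAA likewise in 8 (15.1%) and in 8.3% of all. A match describes the letters only.

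Few serpins passed the test, and they did so in double KO livers. Against control, 2 serpins rose (Serpinb1a and Serpinb1c), 2 fell (Serpina3n and Serpina1a) and 48 did not pass limma's test at an adjusted p of 0.05. Over all genes 0.843% were called in that comparison, 0.523% higher and 0.32% lower. The 2 serpins that rose are clade B and the 2 that fell are clade A. Against SMRT KO livers, the same 2 clade B serpins rose and 0 fell, where 1.19% of all genes were called, 0.748% higher and 0.437% lower. In SMRT KO against control livers 0 of 52 serpins passed limma's test, beside 0.00451% of all genes called. At an unadjusted p under 0.05 in that comparison there were 3 serpins (5.77%) and 1331 of all genes (6%), so the serpin share was at the background. In double KO against control livers 13 serpins (25%) had such a p from limma, beside 10.8% of all genes. The share was 17.4% for genes with a mean log2 value of at least 8 and 27.3% for at least 12. It was 38.5% for the 13 serpins with a mean of at least 8. Against SMRT KO livers 12 serpins (23.1%) had such a p, beside 10.5% of all genes. There the other shares were 19.6%, 23.4% and 46.2%, in the same order. The groups did not overlap for 12 of 52 serpins in double KO against control livers, beside 15% of all genes. With a mean of at least 8, this held for 5 of 13 serpins and 1424 of 5415 genes. The groups did not overlap for 11 of 52 serpins in double KO against SMRT KO livers, beside 13.8% of all genes. With a mean of at least 8, these numbers were 6 of 13 and 1399 of 5415. In SMRT KO against control livers the groups did not overlap for 5 of 52, beside 8.16% of all genes. The median log2 difference of the 52 serpins from control was -0.05 in double KO livers, against 0.004 over all genes, and also -0.05 in SMRT KO livers.

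The count of called serpins in double KO against control livers, 4 with all mice, was 2 without any of the 3 control mice and 1 without any of the 3 double KO mice. Against SMRT KO livers it was 4 without control replicate 3. These comparisons share mice, so their results are not separate evidence.

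**Figure D1:**
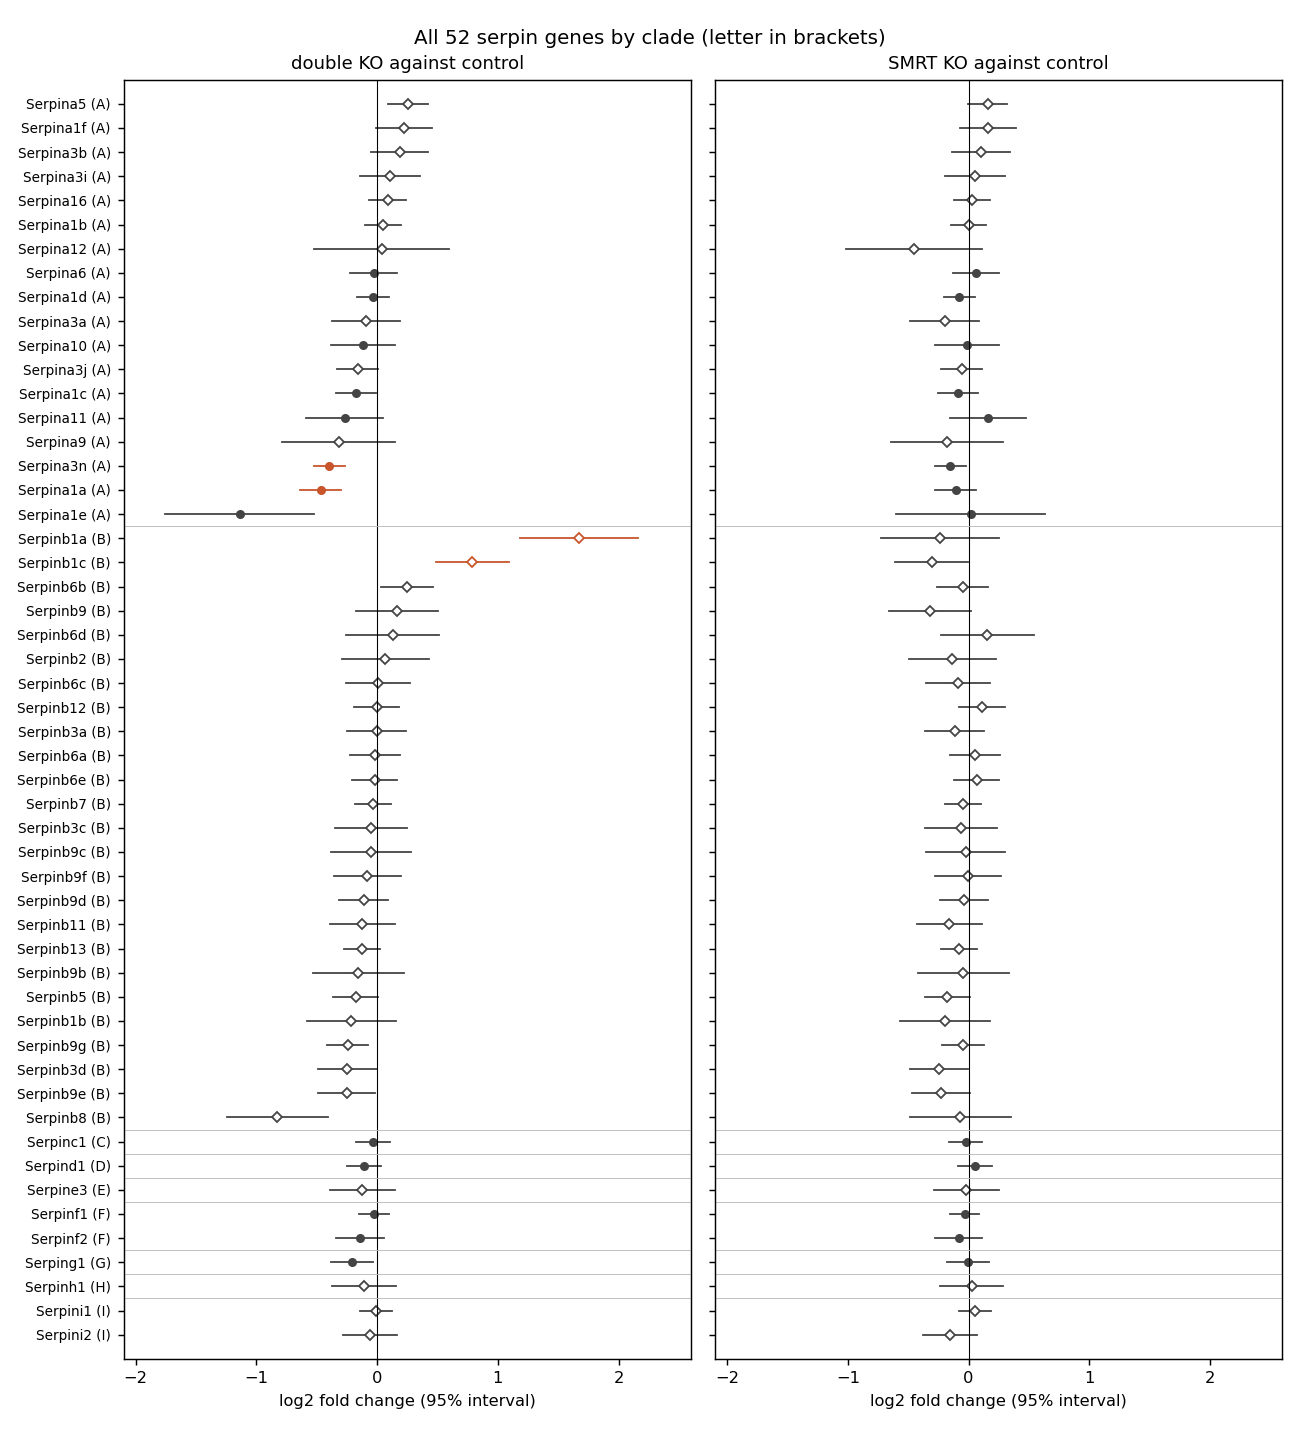
Log2 difference of each serpin gene from control livers, for double KO and SMRT KO livers, with 95% intervals from limma. Filled circles are the 13 genes with a mean log2 value of at least 8, open diamonds are the other 39 and orange marks the called genes. Serpinb1a (1.67) and Serpinb1c (0.79) stand to the right in double KO livers, and Serpina1e, at -1.14, is the leftmost without passing.

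The 13 well expressed serpins, with a mean log2 value of at least 8, were all below control in double KO livers, most by little. Of these, 2 fell (Serpina3n and Serpina1a) and 11 did not pass. The 13 had a median log2 difference of -0.14 and a range of -1.14 to -0.03. Of the 5415 genes with a mean of at least 8, 48 were called lower and 59 higher, with a median of -0.003. Of the 205 with a mean of at least 12, 8 were called lower and 1 higher, with a median of -0.03. Hepatocyte markers also lay lower in these livers. The log2 values of the 8 markers summed to 102.5 to 102.8 in control, 102.3 to 102.6 in SMRT KO and 101.6 to 102 in double KO livers. Of the markers 7 of 8 were below control in double KO livers and 0 passed, with a median of -0.10 over all 8. Apoa1 was at 0.01, and the 7 lower markers ran from -0.05 for Alb to -0.23 for Tat. The part of this in the serpin values was not tested. Against SMRT KO livers 11 of the 13 serpins were lower in the mean and 0 passed (median -0.11). In SMRT KO against control livers 9 of 13 were lower and 0 passed (median -0.02). Serpinb9, with a mean of 7.93, lay just under the threshold, and Serpina11, with 9.69, was the lowest above it.

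**Figure D2:**
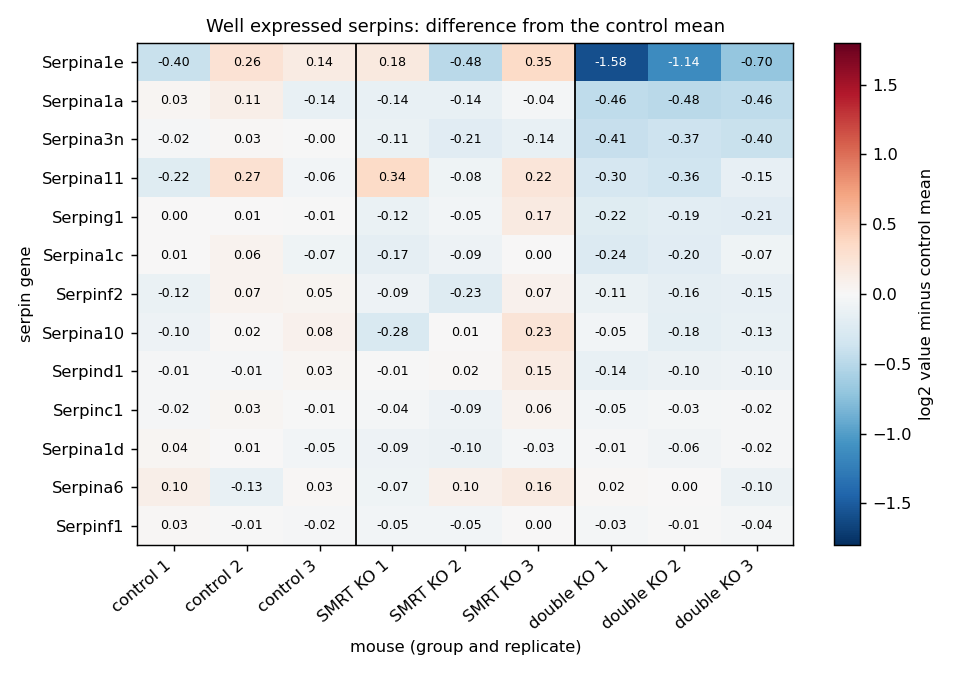
Log2 value of each of the 13 well expressed serpins in each mouse minus the mean of the control mice, 3 columns per group. The double KO columns of Serpina1e reach -1.58, -1.14 and -0.70, and those of Serpina1a (-0.48 to -0.46) and Serpina3n (-0.41 to -0.37) are even over the 3 mice.

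Serpina1a, one of the mouse alpha-1-antitrypsins, fell in double KO livers. Its log2 values were 10.50, 10.58 and 10.33 in control, 10.33, 10.33 and 10.44 in SMRT KO and 10.01, 9.99 and 10.01 in double KO mice. Control replicate 3 and SMRT KO replicates 1 and 2 had exactly equal values. Every double KO value lay below every value of the other groups, and the control and SMRT KO groups overlapped. The group means were 10.47 ± 0.128, 10.37 ± 0.0604 and 10.005 ± 0.015 (SD, n = 3 mice each). Serpina1a was 1.38-fold lower in double KO than in control livers (log2 difference -0.47, standard error 0.0750, limma's adjusted p = 0.0251). Against SMRT KO livers it was 1.29-fold lower in the mean without passing (adjusted p = 0.061). The call was lost without control replicates 1 and 2 (adjusted p = 0.0869 and 0.0601) and without double KO replicates 1, 2 and 3 (0.0877, 0.116 and 0.0813).

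Serpina1e, a paralog of Serpina1a within the same gene cluster on chromosome 12, had the largest mean difference below control of the 52 and varied more between mice. Its log2 values were 10.47, 11.13 and 11.02 in control, 11.05, 10.39 and 11.22 in SMRT KO and 9.29, 9.73 and 10.17 in double KO mice. The double KO mice again lay below all 6 others, with a spread of their own of 0.438 (SD, n = 3 mice). The mean was 2.20-fold lower than in control livers (log2 difference -1.14, 95% interval -1.75 to -0.52) and 2.23-fold lower than in SMRT KO livers. Neither difference passed limma's test (adjusted p = 0.127 and 0.103), nor did they in any of the 18 alternative fits (0.0531 to 0.335 and 0.0562 to 0.282).

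The other alpha-1-antitrypsin genes of the cluster did not pass. Serpina1c read 13.30, 13.35 and 13.22 in control, 13.12, 13.20 and 13.29 in SMRT KO and 13.05, 13.09 and 13.22 in double KO mice. These groups overlapped, with a log2 difference of -0.17 between double KO and control livers (95% interval -0.34 to -0.006, adjusted p = 0.442). Serpina1d read 13.24, 13.22 and 13.15 in control, 13.12, 13.10 and 13.17 in SMRT KO and 13.19, 13.14 and 13.18 in double KO mice. Its log2 difference of -0.03 had an interval of -0.16 to 0.10 (adjusted p = 0.894). Serpina1b had a difference of 0.05 (interval -0.10 to 0.19). Serpina1f, a distant relative at the end of this group, was below the receptor percentile on all arrays. Along the chromosome the order is Serpina1f, Serpina1b, Serpina1d, Serpina1a, Serpina1c, Serpina1e and Serpina11, so the gene that fell has neighbours on both sides that did not pass. Because Serpina1a to Serpina1e are near-identical, their probe sets may share signal, and the assignment of a change to 1 of these genes is uncertain.

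Serpina3n, an antichymotrypsin-like acute phase serpin at the far end of the chromosome 12 cluster, fell in double KO livers. Its log2 values were 12.77, 12.82 and 12.79 in control, 12.68, 12.59 and 12.65 in SMRT KO and 12.38, 12.42 and 12.39 in double KO mice. The 3 groups did not overlap, with SMRT KO mice between the other groups. The means were 12.79 ± 0.0259, 12.64 ± 0.0476 and 12.40 ± 0.0213 (SD, n = 3 mice each). Serpina3n was 1.32-fold lower in double KO than in control livers (log2 difference -0.40, standard error 0.0567, limma's adjusted p = 0.016). Against SMRT KO livers it was 1.18-fold lower in the mean, which did not pass (adjusted p = 0.0972). SMRT KO livers differed from control by -0.15 (95% interval -0.28 to -0.02), which did not pass either (adjusted p = 0.807). The call against control was lost without control replicate 3 (adjusted p = 0.0616) and without double KO replicates 1, 2 and 3 (0.0666, 0.067 and 0.0565).

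The members of the Serpina3 group measured beside it, Serpina3a, Serpina3b, Serpina3i and Serpina3j, had means of 4.07 to 4.81, below the receptor percentile, and 0 of 4 passed. Genes of this group are close copies, so the probe set of Serpina3n may also read its relatives. The genes that follow Serpina3n were near their control levels in double KO livers, at log2 differences of 0.01 for Gsc, 0.06 for Dicer1 and -0.01 for Clmn.

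The remaining well expressed clade A serpins did not pass in any comparison. Serpina6, which carries corticosteroids in plasma, read 13.36, 13.13 and 13.29 in control, 13.19, 13.36 and 13.42 in SMRT KO and 13.28, 13.26 and 13.16 in double KO mice. The groups overlapped (double KO against control -0.03, 95% interval -0.22 to 0.17). Serpina10, the protein Z-dependent protease inhibitor that acts on clotting factors, read 10.66, 10.77 and 10.83 in control, 10.48, 10.76 and 10.98 in SMRT KO and 10.70, 10.57 and 10.62 in double KO mice. Its difference from control was -0.12 (interval -0.38 to 0.14), with overlapping groups. Serpina11, which lies beside Serpina1e, read 9.50, 9.996 and 9.67 in control, 10.06, 9.65 and 9.94 in SMRT KO and 9.42, 9.36 and 9.57 in double KO mice. All 3 double KO values lay below the SMRT KO values, by 1.35-fold in the mean (adjusted p = 0.272), and overlapped with control.

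The 5 well expressed serpins outside clade A are Serpinc1, Serpind1, Serpinf1, Serpinf2 and Serping1, all secreted into plasma. All 5 were below control in the mean in double KO livers, by at most 0.21 log2 units, and 0 passed, with a median of -0.11. Serpinc1, antithrombin, read 12.70, 12.75 and 12.72 in control, 12.69, 12.63 and 12.78 in SMRT KO and 12.67, 12.69 and 12.70 in double KO mice, with a difference from control of -0.04 (95% interval -0.17 to 0.10). Serpind1, heparin cofactor II, read 12.75, 12.75 and 12.79 in control, 12.75, 12.78 and 12.91 in SMRT KO and 12.62, 12.66 and 12.66 in double KO mice. Its double KO values were below all others, at -0.11 from control (interval -0.25 to 0.03, adjusted p = 0.59).

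Serping1, the C1 inhibitor, read 12.69, 12.70 and 12.68 in control, 12.56, 12.64 and 12.86 in SMRT KO and 12.47, 12.50 and 12.48 in double KO mice. The double KO values lay below both other groups, 1.15-fold lower than control in the mean (log2 difference -0.21, interval -0.38 to -0.03), and did not pass (adjusted p = 0.37). Serpinf2, the plasmin inhibitor antiplasmin, read 12.51, 12.69 and 12.68 in control, 12.54, 12.40 and 12.70 in SMRT KO and 12.51, 12.47 and 12.47 in double KO mice, with a difference of -0.14 (interval -0.34 to 0.05). Serpinf1, a secreted factor that inhibits vessel growth and no protease, read 9.82, 9.78 and 9.78 in control, 9.74, 9.74 and 9.79 in SMRT KO and 9.76, 9.78 and 9.75 in double KO mice. It differed from control by -0.03 (interval -0.15 to 0.10), and both genes' groups overlapped.

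Serpinb1a rose in double KO livers. It encodes a mouse counterpart of the leukocyte elastase inhibitor, which acts inside cells on elastase, cathepsin G and proteinase 3. Its log2 values were 6.24, 5.97 and 5.64 in control, 6.06, 5.37 and 5.72 in SMRT KO and 7.41, 7.47 and 7.995 in double KO mice. All 3 double KO values were above all 6 others, and the control and SMRT KO groups overlapped. The means were 5.95 ± 0.303, 5.71 ± 0.343 and 7.63 ± 0.322 (SD, n = 3 mice each). Serpinb1a was 3.19-fold higher in double KO than in control livers (log2 difference 1.67, standard error 0.218, 95% interval 1.18 to 2.16, limma's adjusted p = 0.0102). It was 3.76-fold higher than in SMRT KO livers (log2 difference 1.91, adjusted p = 0.0044). SMRT KO and control livers differed by -0.24 (interval -0.73 to 0.25, adjusted p = 0.927). Both calls held in all 18 alternative fits, with adjusted p of 0.00575 to 0.0447 against control and 0.00238 to 0.0211 against SMRT KO livers. Serpinb1a exceeded the receptor percentile in 1 control, 1 SMRT KO and all 3 double KO mice, so most values of the lower groups are not shown to be above background.

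Serpinb1c, a paralog and the next measured gene on chromosome 13, rose as well. It read 5.997, 5.63 and 5.96 in control, 5.47, 5.51 and 5.69 in SMRT KO and 6.60, 6.45 and 6.90 in double KO mice. The double KO values were above all others and were the only ones over the receptor percentile, so its fold rests on lower groups not shown to be above background. Serpinb1c was 1.73-fold higher in double KO than in control livers (log2 difference 0.79, standard error 0.135, limma's adjusted p = 0.0342). It was 2.13-fold higher than in SMRT KO livers (adjusted p = 0.0061), a call that held in 17 of 17 fits. The call against control held in 8 of 17, and among the fits without 1 mouse only without SMRT KO replicate 3, in a range of 0.0207 to 0.102. Serpinb1a and Serpinb1c are close copies, so the signal of either probe set may include the other.

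**Figure D3:**
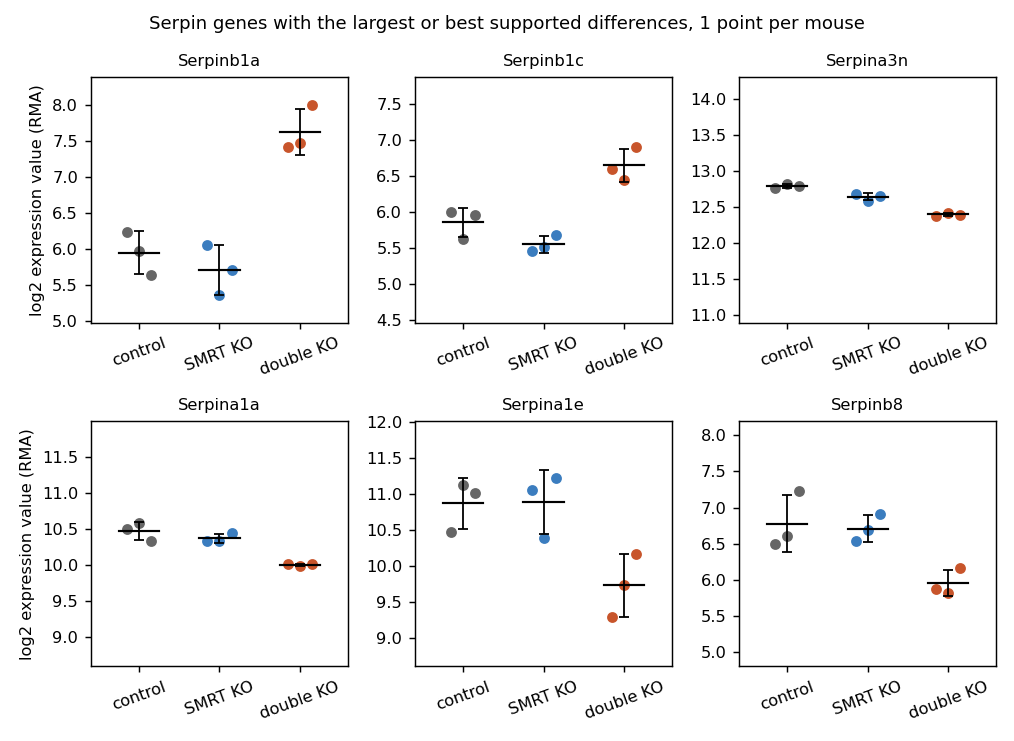
Log2 value of the leading serpins in each mouse, by group, with points for mice and bars for the group mean and SD (n = 3). Serpinb1a and Serpinb1c are higher in the 3 double KO mice than in all others, and Serpina3n, Serpina1a, Serpina1e and Serpinb8 are lower, the last of which, like Serpina1e, did not pass.

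Apart from Serpinb1c, the nearest measured genes on either side of Serpinb1a did not pass. On one side lie Wrnip1, Mylk4 and Gmds, with log2 differences between double KO and control livers of 0.08, -0.15 and -0.03. On the other side, after Serpinb1c, come Serpinb6b at 0.25 (adjusted p = 0.377) and Serpinb9 at 0.16 (adjusted p = 0.787). The third paralog, Serpinb1b, was below the receptor percentile on all arrays, at -0.21.

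Neutrophils are a rich source of SERPINB1, so their markers were set beside it. The log2 values of the 8 neutrophil markers summed to 39.72 to 40.2 in control, 39.81 to 41.25 in SMRT KO and 39.76 to 40.95 in double KO livers. The ranges overlapped, and 0 of 8 passed in any comparison. Single marker means were 4.04 to 6.07, within or under the range of the receptor percentile. The proteases that SERPINB1 inhibits did not pass in double KO against control livers, at 0.12 for Elane (95% interval -0.06 to 0.30), 0.02 for Ctsg (-0.12 to 0.16) and 0.06 for Prtn3 (-0.20 to 0.32).

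Of the other 23 clade B serpins 0 passed in any comparison. In double KO against control livers 5 were above and 18 below, with a median log2 difference of -0.05. The largest of these, Serpinb8, was chosen for display after its values were seen. It encodes an intracellular inhibitor of furin-like proteases and read 6.49, 6.61 and 7.23 in control, 6.53, 6.69 and 6.91 in SMRT KO and 5.87, 5.82 and 6.16 in double KO mice. The double KO values were below all others, 1.78-fold in the mean against control (log2 difference -0.83, interval -1.25 to -0.41) and 1.69-fold against SMRT KO livers, and neither passed limma's test (adjusted p = 0.0985 and 0.115). Its values exceeded the receptor percentile in all 6 mice of the higher groups and in 1 double KO mouse.

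Serpinb9, which protects cells from granzyme B, read 7.85, 7.99 and 8.09 in control, 7.54, 7.49 and 7.95 in SMRT KO and 7.90, 8.13 and 8.40 in double KO mice. The groups overlapped, at 0.16 against control and 0.48 against SMRT KO livers (adjusted p = 0.25). The 7 members of its group had a median of -0.11 against control, and 0 passed. The 5 measured Serpinb6 genes, inhibitors of cathepsin G and related proteases, had a median of 0.01, and the 3 Serpinb3 genes had -0.05, again with 0 called.

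Among the genes of other clades with a mean under 8, Serpinh1 encodes a collagen chaperone of the endoplasmic reticulum that inhibits no protease. Its means were 7.36 ± 0.164 in control, 7.38 ± 0.0783 in SMRT KO and 7.25 ± 0.208 in double KO livers (SD, n = 3 mice each), with a difference of -0.11 (95% interval -0.37 to 0.15). The 10 collagen genes it serves had a median of 0.13 in double KO against control livers, and 0 passed. Serpine3, Serpini1 (neuroserpin) and Serpini2 had means of 4.04 to 5.26, below the receptor percentile, and did not pass. Serpina12 of clade A, the adipokine vaspin, read 5.68, 5.71 and 5.50 in control, 5.50, 5.40 and 4.63 in SMRT KO and 5.35, 5.50 and 6.15 in double KO mice. It exceeded that percentile on 1 array.

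In SMRT KO against control livers the 3 serpins with an unadjusted p under 0.05, a share no higher than that of all genes, were Serpina3n, Serpinb1c and Serpinb3d. Serpinb1c differed by -0.30 (95% interval -0.61 to -0.001) and Serpinb3d by -0.24 (both adjusted p = 0.832). Of the 52 serpins 36 were below and 16 above control, with a range of -0.45 to 0.16. Over all genes 10993 were below and 11178 above. Of the 36 lower serpins, 27 were among the 39 with a mean under 8, most of them near background. Kupffer cell markers lay higher in SMRT KO livers. Their sums were 77.6 to 80.14 in SMRT KO, 75.58 to 77.77 in control and 75.63 to 77.4 in double KO livers. All 9 were above control in SMRT KO livers (median 0.29) and 0 passed, and their part in the serpin values was not tested.

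Genes for the proteases that serpins act on were examined as a list of 30, of which 27 were measured. In double KO against control livers 1 fell, 0 rose and 26 did not pass, beside 0.843% of all genes called. The median log2 difference of the list was -0.07. The gene was Proc, which encodes protein C, the anticoagulant protease of plasma. Proc read 11.82, 11.87 and 11.92 in control, 11.79, 11.80 and 11.88 in SMRT KO and 11.50, 11.46 and 11.54 in double KO mice. The double KO values were below all others, 1.29-fold lower than control (limma's adjusted p = 0.026) and 1.25-fold lower than SMRT KO livers (0.0392). The call against control was lost without any of the 3 control and 3 double KO mice (adjusted p up to 0.125), and the call against SMRT KO livers without any of the 9 mice (up to 0.16).

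F11, clotting factor XI, read 10.15, 10.55 and 10.65 in control, 10.76, 10.24 and 10.57 in SMRT KO and 9.48, 9.49 and 9.81 in double KO mice. It fell 1.90-fold against SMRT KO livers (limma's adjusted p = 0.0344) and was 1.81-fold lower than control in the mean without passing (0.0574). The call was lost without control replicate 2, SMRT KO replicates 1 and 3 and every double KO mouse (highest adjusted p 0.148). Proc and F11 were the 2 proteases called of 27 in double KO against SMRT KO livers, beside 1.19% of all genes.

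Inhibitors outside the family were listed as 30 genes, 29 of them measured, with a median log2 difference of -0.006 in double KO against control livers. Mug2 was the 1 gene called, beside 0.843% of all genes. Mug1 and Mug2 were the 2 called against SMRT KO livers, beside 1.19% of all genes. Mug1 and Mug2 encode murinoglobulins, plasma proteins related to alpha-2-macroglobulin that trap proteases of many kinds. Mug2 read 12.29, 12.54 and 12.30 in control, 12.47, 12.29 and 12.47 in SMRT KO and 11.29, 11.03 and 11.73 in double KO mice. All 3 double KO values were below the others, 2.03-fold lower than control (limma's adjusted p = 0.0214) and 2.09-fold lower than SMRT KO livers (0.0147). Mug1 read 13.22, 13.42 and 13.26 in control, 13.42, 13.25 and 13.26 in SMRT KO and 12.67, 12.33 and 12.89 in double KO mice. It fell 1.60-fold against SMRT KO livers (adjusted p = 0.0473) and differed from control by -0.67 without passing (0.0586). Mug1 and Mug2 are close copies whose probe sets may share signal. The call of Mug2 against control was lost without each control mouse and double KO replicates 1 and 2 (adjusted p up to 0.0869), and against SMRT KO livers without SMRT KO replicates 1 and 3 and double KO replicate 1 (up to 0.0669). The call of Mug1 held only without double KO replicate 3 among the fits that left out 1 mouse (up to 0.163).

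**Figure D4:**
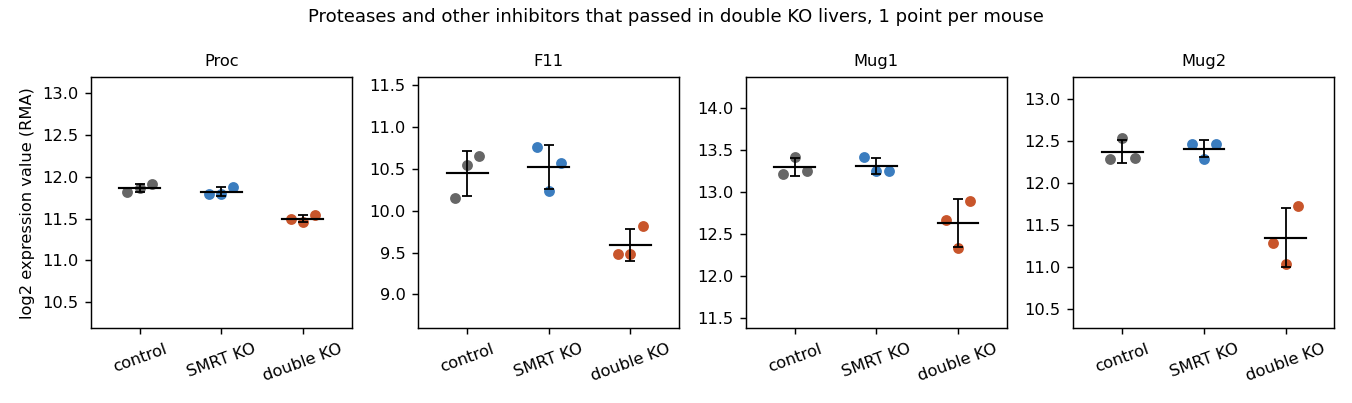
Log2 value of Proc, F11, Mug1 and Mug2 in each mouse, by group, with points for mice and bars for the group mean and SD (n = 3). In each panel the 3 double KO mice lie below the 6 other mice.

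The acute phase list, which holds genes the inflamed liver raises or lowers, had 19 of 20 members measured. In double KO against control livers 1 fell and 18 did not pass, with a median of 0.02, beside 0.843% of all genes called. Saa4, a constitutive serum amyloid A of lipoproteins, read 12.27, 12.14 and 12.31 in control, 12.38, 12.42 and 12.58 in SMRT KO and 11.84, 11.82 and 11.78 in double KO mice. The double KO values lay below all others, 1.35-fold lower than control (limma's adjusted p = 0.0346) and 1.57-fold lower than SMRT KO livers (0.0044). The latter held without each of the 9 mice, while the call against control was lost without control replicates 1 and 3, SMRT KO replicate 2 and every double KO mouse (highest adjusted p 0.137). The 15 measured genes that fold, export, degrade or clear serpins, such as Lman1, Hspa5 and Lrp1, had a median of -0.09, and 0 passed in any comparison.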

How the data were processed

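Liver RNA, 200 ng per mouse, was amplified, labelled with biotin and hybridised to Affymetrix whole-transcript arrays, per the labels' protocols. The deposited values are log2 signals from RMA, per the submitters' processing notes, in a version not given in the labels. RMA normalizes the arrays to each other, so a shift shared by most genes would not show. Of 41345 probe sets, 23521 had 1 gene symbol, 1814 had several and 16010 are unnamed here, which left 22180 genes with no filter on level. Values were exactly equal on 2 or more arrays for 24 of the 52 serpins and 51.4% of all genes.

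Two-sided tests came from a limma 3.58.1 model (R 4.3.3) of all 9 arrays, through lmFit, contrasts.fit and eBayes, with no block, with 6 residual and 3.36 prior degrees of freedom. Benjamini-Hochberg adjustment covered all genes within each of 3 comparisons, calls were made below an adjusted p of 0.05, and intervals are 95%. An exact permutation test of 3 against 3 mice has 0.1 as its smallest p and was not run. Groups came from the sample titles. The labels give no pairing of mice. Deviations of mice with the same replicate number correlated at -0.08 to 0.12 between groups over all genes, so a pairing was not shown. Values per mouse are given for serpins that were called, well expressed or at least 2-fold different. They are also given for Serpinb8, Serpinb9 and Serpina12, which met none of these conditions. List genes are named where called, and other genes are named for their role or position. The members and lists were chosen with earlier results of these data known. Motifs and identities were computed with Biopython 1.88. The steps were tested on simulated data. The number of arrays limits the precision.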

Additional observations from a re-analysis of the deposited data

How the results depend on the processing

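Alternatives were 9 other settings and the 9 fits without 1 mouse. Of the 63 results of single genes followed, 47 stayed on the same side of the threshold throughout, and most of these 47 passed in no fit. Of the rest, 10 passed in the model as reported and lost their call in at least 1 alternative. The other 6 did not pass and gained a call in at least 1. Results that passed in the model as reported or in any alternative kept their sign in every alternative that gave a value. Some results that passed in none changed sign. Serpina1e in SMRT KO against control livers did so in 5 of 18 alternatives, and Serpina6 in double KO against control livers in 2. The calls of Serpinb1a against both groups, and of Serpinb1c and Saa4 against SMRT KO livers, held in every alternative that gave a value. No other call did. Serpinb1c has no value where dim genes are left out. Called serpins in double KO against control livers numbered 2 with only the 2 groups compared in the fit, and 1 to 4 without 1 mouse. Against SMRT KO livers they numbered 4 with an intensity trend in the prior variance, and 2 to 4 without 1 mouse, and in SMRT KO against control livers 0 in all alternatives. Over all genes, double KO against control gave 285 with array weights, 109 with only 2 groups and 61 to 179 without 1 mouse (187 in the model as reported). Double KO against SMRT KO gave 124 with only 2 groups and 101 to 234 without 1 mouse (263), and SMRT KO against control 0 with only 2 groups, 2 with dim genes left out and 0 to 23 without 1 mouse (1). With the replicate number as a block, SMRT KO against control gave 0 called serpins and 2 called genes, double KO against control gave 4 and 152, and double KO against SMRT KO gave 3 and 195. Under the block Serpina1a lost its call against control (adjusted p = 0.0631) and Serpinb8 passed against control and SMRT KO livers (0.0207 and 0.0223), and mice that share only a number are not shown to be paired. Serpinb8 also passed against control with array weights (0.0388) and against SMRT KO livers without control replicate 3 (0.0323). The cause of these changes was not tested. Signals near the receptor genes' level limit what can be said of most clade B serpins.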

Other observations

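Serpina4-ps1, a pseudogene of the chromosome 12 cluster between Serpina12 and Serpina5, is outside the naming rule and was chosen after its values were seen. It read 6.28, 10.19 and 7.76 in control, 9.70, 7.57 and 6.39 in SMRT KO and 5.22, 5.55 and 5.90 in double KO mice. All 3 double KO values were below the other 6, which themselves spread over several log2 units (SD 1.97 in control and 1.68 in SMRT KO mice, n = 3 each). In the mean it was 5.74-fold lower than control and 5.02-fold lower than SMRT KO livers, and neither difference passed limma's test (adjusted p = 0.388 and 0.445).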
